A study of Mus musculus and Homo sapiens with 10 samples.

Results

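Lgals1 and Camk2b were 2 of the 25899 genes in the expression table of mouse embryonic stem cells (mESCs), and both were lower after vitamin C (vitC). They were chosen on that fall: with Ldha they were the 3 genes called lower in the comparison of vitC with control, so the size of their fall is given below as a description and was not tested. RNA-seq had been run on 8 libraries of E14 cells, an established mESC line, comprising 4 untreated control cultures and 4 cultures given 100 µg/ml vitC for 24 h. No genetic change is given for them, and all 8 were grown without feeders in 2i media, which is serum-free with LIF and inhibitors of the MAPK/ERK and GSK3β pathways. For human embryonic stem cells (hESCs) there were 1 untreated control library and 1 library given 100 µg/ml vitC for 24 h. Both were of H9, an established line in the primed state, grown in KSR/FGF medium. The labels name the line H9, while the study's methods name the cells kept in this medium H9-NK2, which carry doxycycline-inducible KLF2 and NANOG transgenes. All cultures of each species came from 1 line. Libraries of one replicate number shared a label, taken here as that of a culture, giving 4 pairs of control and vitC. Replicates 1 and 2 were grouped here as a culture set, and replicates 3 and 4 as another. The labels do not name these sets.

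Lgals1 encodes galectin-1, a small secreted and cytosolic lectin that binds β-galactosides on the glycans of laminin, fibronectin and integrins and takes part in cell adhesion. Galectins share a carbohydrate-recognition domain and differ in whether they carry 1 or more of them. Camk2b encodes the β subunit of calcium/calmodulin-dependent protein kinase II (CaMKII), a kinase of many subunits that calcium-bound calmodulin switches on and that can then phosphorylate itself. The α and β subunits are best known from neurons, where β also binds actin, while γ and δ are found in many tissues.

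Lgals1 lies at chr15:78926725-78930465 on the plus strand of GRCm38, with 903 bases of annotated exon, and Camk2b at chr11:5969644-6066362 on the minus strand, with 9125 bases. No other annotated gene overlapped either. RefSeq gave a promoter window for 1 of the 2 members. The Camk2b window ran from 250 bases before to 50 bases after the RefSeq start, at chr11:6065699-6065998 on the minus strand of GRCm38.p6. It lies inside the annotated span of Camk2b given above, whose start on this strand is at 6066362. The window thus covers the RefSeq start and not the start of that annotation. It is shown as the promoter window RefSeq gives for a member, with every GGGCGG in capitals.

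Camk2b promoter: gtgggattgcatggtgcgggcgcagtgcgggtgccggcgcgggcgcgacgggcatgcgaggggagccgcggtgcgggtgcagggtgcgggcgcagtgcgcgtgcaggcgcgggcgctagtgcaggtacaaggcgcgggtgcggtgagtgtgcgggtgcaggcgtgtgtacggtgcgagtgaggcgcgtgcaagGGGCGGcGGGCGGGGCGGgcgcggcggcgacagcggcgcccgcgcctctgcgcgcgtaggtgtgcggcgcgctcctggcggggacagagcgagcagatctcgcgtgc

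GGGCGG, the core of the GC box, was found 3 times on the strand of the gene, the second and the third overlapping by 1 base, and CCGCCC, its other strand, was not found. This motif was held by 35.7% of the 32851 windows of the same length in either direction. The TATA box letters TATAAA had no match on either strand and were held by 13.6% of all windows. The CCAAT box had none either, with a share of 37.4%. Of the 2 forms of the core bound by hypoxia-inducible factors, ACGTG, held by 19.6%, had no match, and GCGTG, a search added after the data were seen, had 4 on the strand of the gene and was held by 32.4%. The Camk2b window held 51 CpG dinucleotides and 77.3% G and C, against medians of 7.0 and 52.7% over all windows. The shares count windows with any match and were not matched for this content. Whether GGGCGG or GCGTG was enriched in the Camk2b window was therefore not tested.

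Lgals1 fell in every culture pair. Control libraries 1 to 4 held 326, 191, 228 and 367 reads of Lgals1, and vitC libraries 1 to 4 held 130, 144, 96 and 144. Per 1000000 gene reads (CPM), these were 52.9, 36.8, 50.8 and 53.0 in control and 24.2, 24.7, 28.6 and 30.4 with vitC. The lowest control library, replicate 2, stood above the highest vitC library, so the groups did not overlap. The mean level went from 48.4 ± 7.78 CPM (SD, n = 4) to 27.0 ± 2.98 CPM (SD, n = 4), a ratio of 0.558. Within pairs 1 to 4 the ratio of vitC to control was 0.458, 0.671, 0.563 and 0.573, so the smallest fall was in the pair with the low control.

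Camk2b also fell in every pair. Control libraries 1 to 4 held 181, 178, 130 and 231 reads of Camk2b, and vitC libraries 1 to 4 held 86, 98, 74 and 93. These were 29.4, 34.3, 29.0 and 33.4 CPM in control and 16.0, 16.8, 22.1 and 19.6 CPM with vitC. The 4 control libraries lay close together, and again no vitC library reached the lowest of them. The mean level went from 31.5 ± 2.74 CPM (SD, n = 4) to 18.6 ± 2.75 CPM (SD, n = 4), a ratio of 0.591. The ratio within pairs 1 to 4 was 0.546, 0.490, 0.762 and 0.587, with the smallest fall in pair 3. In bulk RNA, fewer cells with a transcript and less of it per cell cannot be told apart.

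**Figure D1:**
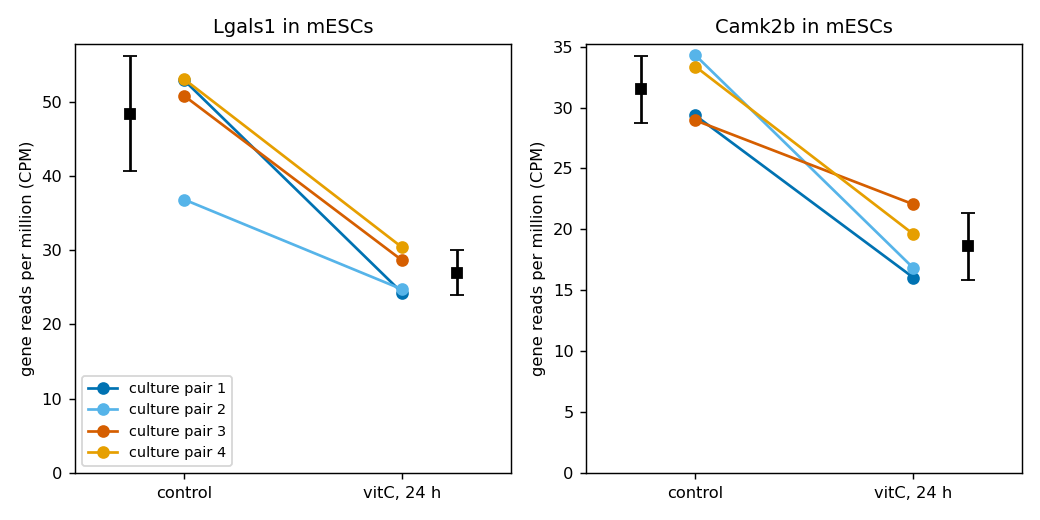
Level (CPM, y axis from 0) of Lgals1 and Camk2b in control and vitC-treated mESCs; lines join the 2 libraries of a culture pair, and black squares with bars are the mean and SD of 4. All 4 lines fall for both genes, from a control mean of 48.4 to 27.0 CPM for Lgals1 and from 31.5 to 18.6 CPM for Camk2b.

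On the deposited variance-stabilised scale, which is log2-like and compresses changes of genes with few reads, the difference of vitC minus control was -0.52 (SE 0.087) for Lgals1 and -0.42 (SE 0.070) for Camk2b. The adjusted p by limma that selected them was 0.0477 for each, just inside the threshold of 0.05. Ldha, a lactate dehydrogenase subunit, was the other gene inside it at -0.71. The nearest outside were Morf4l2 at -0.43 (limma adjusted p = 0.0538), Pfkl at -0.45 (limma adjusted p = 0.0558) and C77370 at -0.37 (limma adjusted p = 0.0575). Of the 14631 genes tested, 0.0205% were called lower and 0.321% higher, and with the replicate number as a block 4.44% lower and 6.36% higher. Every vitC library was below every control library in 1.98% of them. Since this contrast chose the genes, these shares say nothing of them.

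The fall did not differ detectably between the culture sets. The choice of genes did not test this comparison. It did favour genes with little spread within groups, and so with small differences between sets in fall and level. Lgals1 differed by -0.52 in replicates 1 and 2 and by -0.52 in replicates 3 and 4, and the difference between the sets was -0.0022 (SE 0.13, limma adjusted p = 0.9997). For Camk2b the differences were -0.51 and -0.32, and the difference between the sets was 0.19 (SE 0.11, limma adjusted p = 0.9997). By limma 0% of genes were called higher and 0% lower in this interaction (223 and 378 genes at an unadjusted p under 0.05), and edgeR on recovered reads also called 0. Regardless of treatment, the level in replicates 3 and 4 minus that in replicates 1 and 2 was 0.15 (SE 0.062, limma adjusted p = 0.0714) for Lgals1 and 0.07 (SE 0.059, limma adjusted p = 0.380) for Camk2b. Between the sets 18.9% of genes were called higher and 21.5% lower.

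Among the other galectin genes none passed the test. Lgals1 was by far the most abundant per length of exon, where it had 53.6 ± 8.61 CPM per kb (SD, n = 4) without treatment and 29.9 ± 3.31 CPM per kb (SD, n = 4) after vitC. Lgals3, whose product has a single lectin domain on a collagen-like tail, followed at 5.65 ± 2.48 CPM per kb in control (SD, n = 4). Lgals9 and Lgals8, which encode galectins with a pair of lectin domains, stood at 3.65 ± 0.795 and 2.29 ± 0.576 CPM per kb in control (SD, n = 4). Lgals3 and Lgals9 differed by less than the SD of Lgals3, and Lgals9 differed from Lgals8 by more than either SD, while Lgals1 stood clear of them in every library. Lgals9 had 35, 40, 36 and 68 reads in control libraries 1 to 4 and 27, 44, 21 and 19 with vitC. Scaled for depth it was lower in 4 of 4 pairs, by -0.15 on the variance-stabilised scale (SE 0.081, limma adjusted p = 0.759), but the groups overlapped. Lgals3 differed by -0.13 (SE 0.109, limma adjusted p = 0.851) and was lower in 3 of 4 pairs, with control replicate 4 the highest library at 16.8 CPM. Lgals8 was lower in 2 of 4 pairs and differed by -0.04 (SE 0.091, limma adjusted p = 0.958).

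Lgals4, Lgals7, Lgals12 and Lgals3bp, the last a galectin-3 binding protein and no galectin, held between 0 and 9 reads in each library, too few to show a change. Lgals2 had no read in any library, which allows up to 0.433 to 0.894 CPM at 3 reads. Of the 8 Lgals rows other than Lgals1, 7 were tested and limma called 0, with 0 at an unadjusted p under 0.05. edgeR and DESeq2 on recovered reads and limma with the replicate block called 0 as well. The median difference of the 7 was -0.04, against -0.0020 over all genes tested.

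Among the genes of CaMKII, the differences of the other subunits varied in sign, and none passed the unpaired test. Camk2a, the α subunit, was a minor transcript with 30, 18, 16 and 30 reads in control libraries 1 to 4 and 15, 16, 3 and 11 with vitC. Its level went from 4.06 ± 0.663 CPM (SD, n = 4) to 2.19 ± 0.889 CPM (SD, n = 4), lower in 4 of 4 pairs and with no overlap between the groups. The difference of -0.21 (SE 0.075) missed the threshold (limma adjusted p = 0.514), which the fit with the replicate block passed (limma adjusted p = 0.0415). Of all genes tested, 4.44% were called lower with the block, and 1.98% had every vitC library below every control library.

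Camk2g, the γ subunit, held 198, 193, 123 and 189 reads in control libraries 1 to 4 and 196, 219, 119 and 166 with vitC. The control level of 31.0 ± 4.70 CPM (SD, n = 4) compared with 36.1 ± 1.16 CPM (SD, n = 4) after vitC, higher in 4 of 4 pairs. Its difference of 0.15 (SE 0.072) did not pass the test without the block (limma adjusted p = 0.696) or with it (limma adjusted p = 0.0689). Camk2d, the δ subunit, was higher in 3 of 4 pairs, by 0.11 (SE 0.089, limma adjusted p = 0.851). Camk2n1 and Camk2n2 encode small inhibitor proteins of CaMKII, and differed by 0.01 (SE 0.096) and -0.01 (SE 0.111). The median difference of the 5 genes besides Camk2b was 0.01. limma called 0 of the 5 with 1, Camk2a, at an unadjusted p under 0.05, while edgeR and DESeq2 on recovered reads called 0.

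Per length of exon, γ and β were the main subunit transcripts in control mESCs, at 4.84 ± 0.734 and 3.45 ± 0.300 CPM per kb (SD, n = 4), followed by α at 0.544 ± 0.0888 and δ at 0.235 ± 0.0585 (SD, n = 4), each apart from the next beyond its SD. With vitC the level of β was 2.04 ± 0.302 CPM per kb (SD, n = 4), that of γ 5.65 ± 0.181 (SD, n = 4), and α and δ stood at 0.293 ± 0.119 and 0.298 ± 0.0988 (SD, n = 4), within each other's spread. Camk2b made up 35.4% to 41.5% of the summed per-length level of the 4 subunits in control libraries and 21.3% to 29.2% in vitC libraries. Camk2g made up 48.4% to 56.4% in control and 66.9% to 69.8% with vitC. These shares contain the fall that chose Camk2b. They take all annotated exons as the length, so a gene that used short isoforms would be understated.

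**Figure D2:**
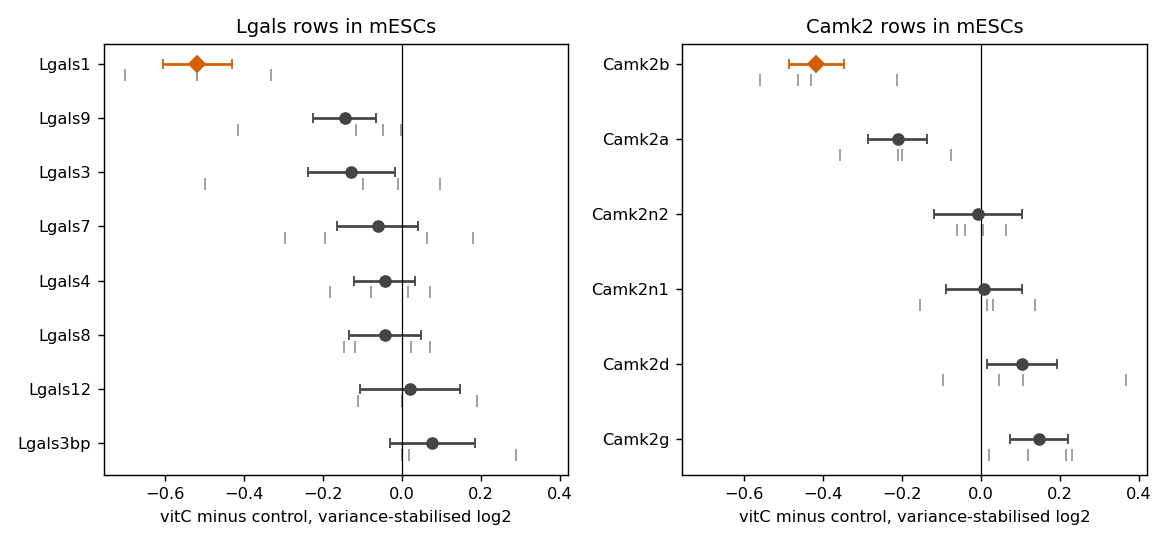
Difference of vitC minus control on the variance-stabilised log2 scale (x axis) for the tested Lgals rows (left) and Camk2 rows (right) in mESCs; points with bars are the limma estimate and its SE, grey ticks the 4 culture pairs, and orange diamonds the 2 chosen genes. Lgals1 at -0.52 and Camk2b at -0.42 lie lowest in their panels, Camk2a is at -0.21 and Camk2g, at 0.15, lies to the right of 0 in every pair.

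Genes that work with the kinase were listed as calmodulins, other calmodulin-dependent kinases, the phosphatases that reverse CaMKII autophosphorylation and calcineurin. Of these 16 genes 15 were tested. limma called 0 higher and 0 lower, with 1 higher (Ppm1e) at an unadjusted p under 0.05, edgeR and DESeq2 called 0, and the median difference was 0.01. With the replicate block 2 of the 15 were called, where 6.36% of all genes were higher and 4.44% lower. Of these Ppm1e, a phosphatase of CaM kinases, had 11 reads in all control and 31 in all vitC libraries and differed by 0.22 (limma adjusted p = 0.284, with the block 0.0440).

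For galectin-1, the lists held 12 proteins it or other galectins are known to bind and 9 enzymes that build the branched, galactose-bearing glycans they recognise. All 12 ligand genes, Lgals3bp included, were tested and limma called 0, with 1 lower (Itgb1) at an unadjusted p under 0.05, while edgeR and DESeq2 called 0. The median difference was 0.03. With the replicate block 4 of the 12 were higher and 1 lower, where 6.36% and 4.44% of all genes tested were. Fn1, fibronectin, had 35913 reads in control and 39915 with vitC and differed by 0.34 (limma adjusted p = 0.820, with the block 1.2e-07). Lamp1 and Lamp2, lysosomal membrane glycoproteins, differed by 0.20 and 0.15 (limma adjusted p with the block 0.0014 and 0.0271). Lamc1, the laminin γ1 chain, differed by 0.15 (limma adjusted p with the block 0.0042), and each of these 4 was higher in 4 of 4 pairs. Itgb1, integrin β1, differed by -0.18, lower in 4 of 4 pairs (limma adjusted p = 0.556, with the block 0.0174). Of the 9 glycan enzymes none was called by limma with or without the block, by edgeR or by DESeq2, none had an unadjusted p under 0.05, and the median difference was -0.0011.

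None of the 9 tested genes next to the members was called in the unpaired fit by limma (1 lower, Ykt6, at an unadjusted p under 0.05), by edgeR or by DESeq2. Around Lgals1, Pdxp, which encodes a phosphatase, had 484 reads in control and 317 with vitC and differed by -0.16 (SE 0.085, limma adjusted p = 0.757), lower in 3 of 4 pairs. With the block it missed the threshold in limma (limma adjusted p = 0.121) and passed it in edgeR (edgeR adjusted p = 0.0425). That edgeR fit called 888 of the 14631 genes tested lower. Sh3bp1, Nol12, Triobp and H1f0 differed by between -0.05 and 0.04 and passed neither fit, and 1700027A07Rik had no reads. Around Camk2b, Ykt6, a SNARE protein gene that ends 1864 bases from Camk2b, differed by -0.15 (SE 0.064), lower in 4 of 4 pairs with no overlap between the groups. It missed the threshold without the block (limma adjusted p = 0.636) and passed it with the block (limma adjusted p = 0.0382). The shares of all genes tested were 4.44% called lower with the block and 1.98% without such overlap, vitC being lower. Nudcd3 and Ddx56 differed by -0.03 and 0.09 and passed neither fit, and Gm11967 and Npc1l1 had no reads.

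**Figure D3:**
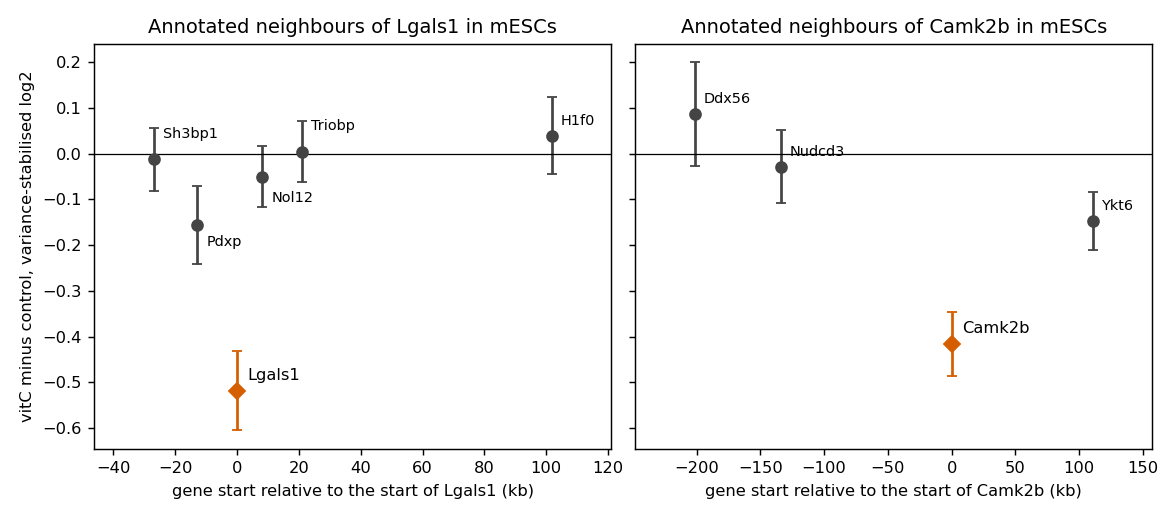
Difference of vitC minus control with its SE (y axis, variance-stabilised log2) for Lgals1, Camk2b and those neighbours with at least 100 reads over the 8 libraries, against the distance of each gene's start from the member's start in the direction of its transcription (x axis, kb). The members lie at -0.52 and -0.42, and the nearest values among the neighbours are those of Pdxp at -0.16 and Ykt6 at -0.15.

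Over the 8 libraries the values of Lgals1 and Camk2b correlated with each other at Pearson's r = 0.849 (Spearman's rho = 0.810), as a description, since both were chosen for the same split of these libraries. The 5 genes most like Lgals1 by Pearson's r were Prrt2 (0.967), Polr3k (0.961), Arpc2 (0.943), 2310045N01Rik (0.939) and Timm8a1 (0.933). Those most like Camk2b were Fntb (0.975), Scfd1 (0.952), Orai3 (0.947), Ston2 (0.946) and Spin2 (0.938). All 10 were lower with vitC in 4 of 4 pairs. Their differences were smaller than those of the members, from -0.28 for Timm8a1 to -0.07 for Arpc2, and were not tested, since likeness to a member fixes their direction.

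The libraries were checked for depth and for other cells. Gene reads ran from 4489804 to 6921305 in control and from 3354852 to 5826923 with vitC, and the share of ribosomal RNA among counts of repeats was 42.0% to 51.5% in replicates 1 and 2 and 60.0% to 63.1% in replicates 3 and 4. The summed level of 10 pluripotency genes was 6021 to 6287 CPM in control and 5472 to 6154 CPM with vitC. None of them was called by limma, and with the block Tfcp2l1 was higher and Pou5f1, Nanog, Zfp42, Dppa5a and Tdgf1 were lower, 1 and 5 of 10, against 6.36% and 4.44% of all genes tested. Of 10 fibroblast markers, a cell type rich in galectin-1, the sum was 6.55 to 17.3 CPM in control and 11.7 to 16.2 with vitC. Over the 8 libraries Thy1 held 292 reads, Col1a2 147, Pdgfrb 51, Col1a1 17, Lum 14, Col3a1 2 and Postn 1. Dcn, S100a4 and Acta2 held 0. The 8 neural markers summed to 82.9 to 130 CPM in control and 79.6 to 140 with vitC, with Rbfox3 at 0. The 6 endoderm markers summed to 2.12 to 4.91 CPM in control and 1.37 to 3.36 with vitC. Gata4 held 49 reads, Sox7 33, Sox17 19, Gata6 7, Foxa2 7 and Afp 0. For fibroblast, neural and endoderm markers the ranges of the groups overlapped and none was called in either fit. The part of depth and of the pluripotency genes in the falls of Lgals1 and Camk2b was not tested.

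In hESCs there was 1 library per condition, so the values have no replicate check and were not tested. LGALS1, at chr22:37675636-37679802 on the plus strand of GRCh38, had 1271 reads in control and 1397 with vitC of 15367652 and 17188555 gene reads. This was 82.7 CPM in control (exact Clopper-Pearson 95% interval 78.2 to 87.4) and 81.3 CPM with vitC (77.1 to 85.7), a log2 ratio of -0.03 (-0.14 to 0.09). On the same scale of log2 CPM ratios, the mESC value was -0.84 for Lgals1. CAMK2B, at chr7:44210019-44334577 on the minus strand, had 10 reads in control and 9 with vitC, or 0.651 CPM (0.312 to 1.20) and 0.524 CPM (0.239 to 0.994). Its log2 ratio of -0.31 (-1.79 to 1.14) could show neither a change nor its absence at this depth, beside a mESC value of -0.76 for Camk2b. The difference between the species was not tested. Intervals cover counting error only, and since gene reads came to 1.77 and 1.81 times the deposited aligned library size, counting of both mates would make them too narrow.

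LGALS1 was also the most abundant galectin transcript per length of exon in hESCs, at 77.5 CPM per kb in control and 76.2 with vitC. LGALSL, a galectin-like gene, followed at 9.71 and 7.84. It had 587 and 530 reads and a log2 ratio of -0.31 (-0.48 to -0.14). LGALS3BP had 468 and 580 reads and a log2 ratio of 0.15 (-0.03 to 0.33), and LGALS8 203 and 229 reads and a log2 ratio of 0.01 (-0.27 to 0.29). LGALS3 had 15 and 12 reads and LGALS9 5 and 6, while both were among the main galectin transcripts in mESCs. LGALS4, with few reads, had 1 in control and 9 with vitC, a log2 ratio of 3.01 (0.16 to 8.46). Of the 17 LGALS rows, which include the antisense LGALS8-AS1, 6 had no read in either library, which allows up to 0.195 CPM in control and 0.175 CPM with vitC.

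The CaMKII subunit transcripts in hESCs were mostly γ and δ. CAMK2G made up 62.8% of the summed per-length level of the 4 subunits in control and 62.8% with vitC, and CAMK2D 35.9% and 35.4%, while CAMK2B made up 0.588% and 0.477%. CAMK2D had 822 and 901 reads and a log2 ratio of -0.03 (-0.17 to 0.11), and CAMK2G 769 and 853 reads and a log2 ratio of -0.01 (-0.15 to 0.13). CAMK2A had 11 and 20 reads. CAMK2N2 had 41 reads in control and 75 with vitC, a log2 ratio of 0.71 (0.14 to 1.30), and CAMK2N1 147 and 140. The 10 fibroblast markers summed to 1899 CPM in control and 1783 CPM with vitC. The 9 pluripotency markers summed to 633 and 644 CPM, and the 8 neural markers to 353 and 356 CPM. Most fibroblast reads were of COL1A1, with 18164 in control and 18881 with vitC, and COL1A2, with 6443 and 6542. THY1, ACTA2 and PDGFRB had 955 to 2202 reads, and S100A4 275 and 366. COL3A1 had 133 and 142, POSTN 96 and 95, LUM 7 and 17, and DCN 0. The part of the fibroblast markers in the level of LGALS1 was not tested.

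**Figure D4:**
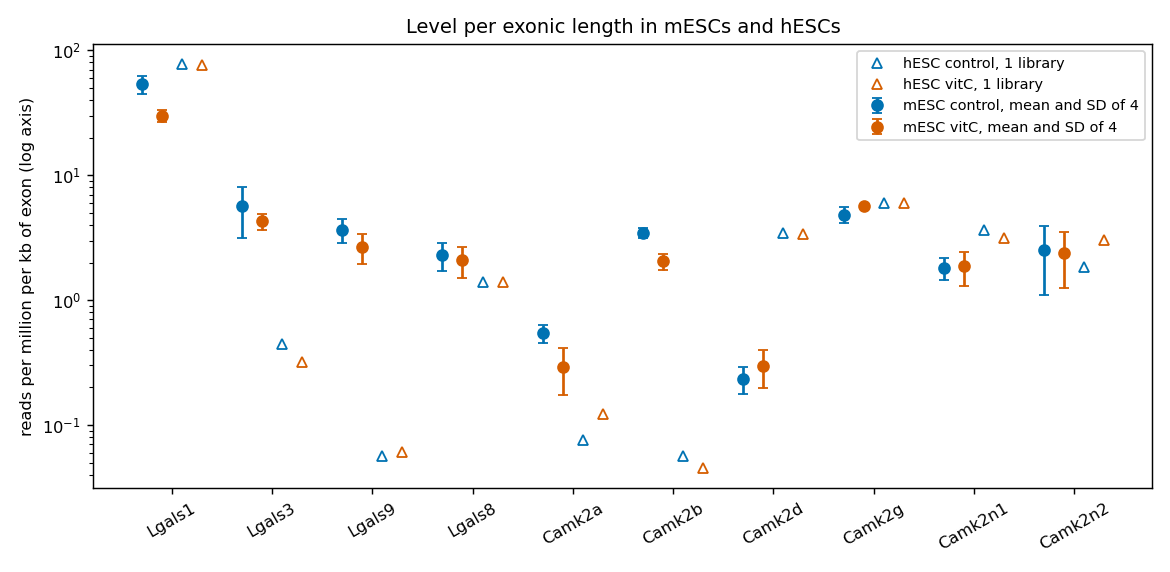
Level per length of exon (y axis, CPM per kb, log axis) of 10 Lgals and Camk2 genes; circles with bars are the mean and SD of 4 mESC libraries, and triangles the single hESC libraries, in blue for control and orange for vitC. Lgals1 leads in both species, from 53.6 to 29.9 in mESCs and from 77.5 to 76.2 in hESCs, and the human counterpart of Camk2b lies under 0.1, where Camk2d lies higher than in mESCs. Levels are not directly comparable between the species, whose annotated exon lengths differ. Ribosomal RNA made up 0% of repeat counts in hESCs and 42.0% to 63.1% in mESCs, and the kit of each library is not given.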

How the data were processed

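Gene expression was taken from 8 mESC libraries and 2 hESC libraries. The authors aligned reads to the mm10 or hg38 assembly and obtained counts per gene with SQuIRE, whose version is not given in the sources used here; the submitters' processing notes name Trim Galore, HISAT2 and DESeq2. Libraries were directional, made after rRNA depletion or mRNA isolation per the labels, which do not say which kit each library had. For genes the authors deposited variance-stabilised log2 values. For repeats the authors deposited expected counts, used here only for the share of ribosomal RNA. 7 other columns of per-sample values were not used.

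Inverting the transformation, with the smallest step of a library taken as 1 read, gave whole reads (within 0.05) for 100% of the 116385 mESC and the 38034 hESC values above the lowest. CPM are these reads per 1000000 gene reads. The 14631 genes with at least 1 read in 4 or more libraries were tested with limma 3.58.1 (lmFit, eBayes with trend; R 4.3.3) with Benjamini-Hochberg adjustment at 0.05. The interaction with the culture set and the level between sets were tested in the same way. Level per length used all exons of the GENCODE annotation, and 2 genes of the lists, Hras and Map2, were matched by their older symbols Hras1 and Mtap2. hESC ratios have exact Clopper-Pearson limits at 95%, for counting error only. Scripts were tested on simulated data.

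The replicate numbers were taken to pair the libraries, since a shared number goes with a shared culture label. Deviations from the group means correlated within pairs at 0.730, 0.674, 0.626 and 0.765 over genes. Libraries of different numbers were not compared in this way, so these values cannot tell a shared pair from a shared set. The study's methods name no block, so the main fit has none and the replicate block is an alternative. Nothing else in the sources says how far cultures were independent, so p-values measure the spread between these libraries, which may be technical.

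The members, the gene lists and the markers were chosen with earlier results of these data known. Named were both members, all Lgals and Camk2 rows, list members that passed a test or were needed for a role, the 3 nearest annotated genes on each side with a row in the table, the 5 genes most correlated with each member, the other gene called lower and the 3 next outside. The values of 2 of these genes are not reported here. Alternatives were the replicate block, no filter, a filter on all 8 libraries, quantile normalization, eBayes without trend, edgeR 4.0.16 and DESeq2 1.42.0 on recovered reads, either culture set alone and each library left out, and for hESCs the aligned library size, median-ratio scaling and the deposited values. edgeR for the level between culture sets was added after seeing the data.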

Additional observations from a re-analysis of the deposited data

Results flagged for a closer look

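In control mESCs, Lgals1 in replicate 2 was at 8.29 on the variance-stabilised scale (191 reads), below the other 3 at 8.59 to 8.64, a gap of 0.859 of the group's range. In vitC-treated mESCs, Camk2n1 in replicate 3 was at 6.95 (15 reads), below the other 3 at 7.27 to 7.34, a gap of 0.840 of the range. Over the 28 groups looked at, chance sets about 1 in 20 apart in this way. Camk2n2 differed by 0.035 in replicates 1 and 2, higher in both pairs, and by -0.049 in replicates 3 and 4, lower in both, picked out because every pair of one set moved against every pair of the other. Its interaction of -0.08 (SE 0.132) was not past the threshold (limma adjusted p = 0.9997).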

How the results depend on the processing

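Lgals1 and Camk2b were lower with vitC under all 18 alternatives. Both were chosen for this fall, and every vitC library lay below every control library, so the direction is no independent check. The difference of Lgals1 was -0.84 in DESeq2, in edgeR and in edgeR with the replicate block, and that of Camk2b was -0.76, -0.76 and -0.78, on the scale of log2 reads, which the variance-stabilised scale compresses. With each library left out, Lgals1 lay between -0.60 and -0.49 (limma adjusted p 0.0122 to 0.177) and Camk2b between -0.46 and -0.38 (0.0469 to 0.169). The threshold that chose them was passed in 1 of these 8 fits for each: for Lgals1 without control replicate 2, for Camk2b without vitC replicate 3. With the filter on all 8 libraries neither passed it (limma adjusted p = 0.0561 for each). In replicates 1 and 2 alone, the limma adjusted p was 0.0471 for Lgals1 and 0.0132 for Camk2b. In replicates 3 and 4 alone, it was 0.0992 for Lgals1 and 0.332 for Camk2b. The interaction of Lgals1 with the culture set, -0.0022, was 0.065 in edgeR and -0.17 to 0.17 with 1 library left out. That of Camk2b, 0.19, was 0.34 in edgeR and 0.12 to 0.26 with 1 library left out. The edgeR values are on the scale of log2 reads, the others on the variance-stabilised scale.

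Genes called higher, 47, and lower, 3, numbered 931 and 650 with the replicate block, 1059 and 888 in edgeR with the block, 102 and 16 in DESeq2, 27 and 1 with the filter on all 8 libraries, 147 and 28 in replicates 1 and 2, 4 and 0 in replicates 3 and 4, and 19 to 31 and 0 to 1 with 1 library left out; quantile normalization gave 5 lower. Under the paired fits, limma and edgeR each called 1 Camk2 gene besides Camk2b, and 7 and 8 of the 37 partner genes listed, not all of which were tested. Of all 14631 genes tested, paired limma called 6.36% higher and 4.44% lower, and paired edgeR 1059 and 888 genes. Every library left out gave 0 for these lists. No Lgals gene besides Lgals1 was called under any alternative. The log2 ratio of LGALS1 in hESCs, -0.03, was 0.011 with the aligned library size and stayed within its counting interval; that of CAMK2B stayed below 0. The levels between culture sets stayed short of the threshold. Depth limits what can be said of Camk2a, Ppm1e, CAMK2B and LGALS4, which had few reads per library.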
